A study of Homo sapiens with 22 samples.

Results

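The genes of pre-mRNA splicing were examined in ChIP-seq peak lists of the transcription factor N-MYC and of the chromatin protein WDR5. The set comprised 59 genes for spliceosome subunits and RNA-binding splicing factors, out of 20175 protein-coding genes in the annotation. A peak was assigned to a gene when it lay within 1000 bp of any of the gene's transcription start sites (TSSs). Where several peaks qualified, the one with the highest fold over local background was taken. Its fold was expressed as a percentile of all peaks in the same list, so that 100 is the strongest peak and 50 the middle one. A gene with no such peak is called not listed, which means that no peak passed the authors' threshold there. Such a gene may still carry the protein at a level below that threshold.

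CHP-134 and IMR-32 are neuroblastoma cell lines with amplified MYCN, the gene that encodes N-MYC. CHP-134 cells received either the vehicle dimethyl sulfoxide (DMSO) or a compound that the sample labels name in conflicting ways and that is therefore not identified here, each for 4 h. There were 3 libraries per antibody and treatment, numbered 1 to 3. IMR-32 cells were untreated and gave 2 libraries per antibody, numbered 1 and 2 for N-MYC and 1 and 3 for WDR5. Each library pooled 3 immunoprecipitations, made with a custom N-MYC serum or with a WDR5 antibody. CHP-134 libraries were sequenced as single reads and IMR-32 libraries as paired reads on another instrument, so line and sequencing run cannot be told apart. IgG libraries were not analysed here.

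Most human genes are interrupted by introns, which the spliceosome removes from the primary transcript. U1 and U2 snRNPs, particles of small nuclear RNA on a ring of Sm proteins, recognise the ends of an intron, and the tri-snRNP then joins to form the catalytic machine. SR proteins and hnRNPs bind the transcript and steer the choice of splice sites, and the exon junction complex marks joined exons. N-MYC, with its partner MAX, binds E-boxes of the form CANNTG, of which CACGTG is the canonical one. WDR5 is a WD-repeat protein of histone methyltransferase complexes that also binds MYC proteins directly.

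The lists differed greatly in length. N-MYC lists held 9125 to 15286 peaks in CHP-134 under DMSO, 2964 to 12313 under the compound and 5242 to 8286 in IMR-32. WDR5 lists held 1671 to 4891 peaks under DMSO and 1258 to 1693 in IMR-32. Under the compound they held 5973, 15 and 401 peaks. Compound replicate 2 therefore stood apart for both antibodies, as the shortest list of its group. Results that rest on these libraries are given with and without them where that could be done.

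Splicing genes were listed often for N-MYC and, beyond that, for WDR5. In CHP-134 under DMSO, 49 of the 59 members had an N-MYC peak in at least 2 libraries, against 37.5% of all protein-coding genes. WDR5 was listed by the same criterion at 24 members, against 8.23% of all genes. Both proteins were listed at 23 members, where the background was 7.5%. WDR5 DMSO replicate 1, the longest of the 3 lists, weighed on these counts, and without it WDR5 was listed at 14 members and both proteins at 13. The share of all genes without that library was not counted, so these numbers have no background beside them. Of 138 other splicing genes from a separate list, 94 had N-MYC, 26 had WDR5 and 23 had both. No test was run on these shares, since the members are not a random draw of genes.

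In IMR-32, with 2 libraries per antibody, the criterion required both libraries, and fewer genes met it. N-MYC was listed in both libraries at 36 members (background 15.2%), WDR5 at 17 (background 4.74%) and both proteins at 14 (background 2.54%). Among the other splicing genes the corresponding numbers were 48, 20 and 15. With all 3 libraries required in CHP-134 under DMSO, N-MYC was at 40 members, against 26.5% of all genes. WDR5 was then at 14 members, against 3.86% of all genes, and both proteins were at 12. For WDR5 and for both proteins, these member counts were below those in IMR-32. By the criterion of at least 2 libraries, both proteins in both lines were listed at 12 members, where the background was 1.96%. They were SF3B3, SNRPA, SNRPB, SNRPE, SRSF1, SRSF7, SRSF11, TRA2B, HNRNPA1, HNRNPK, HNRNPU and RNPS1.

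**Figure D1:**
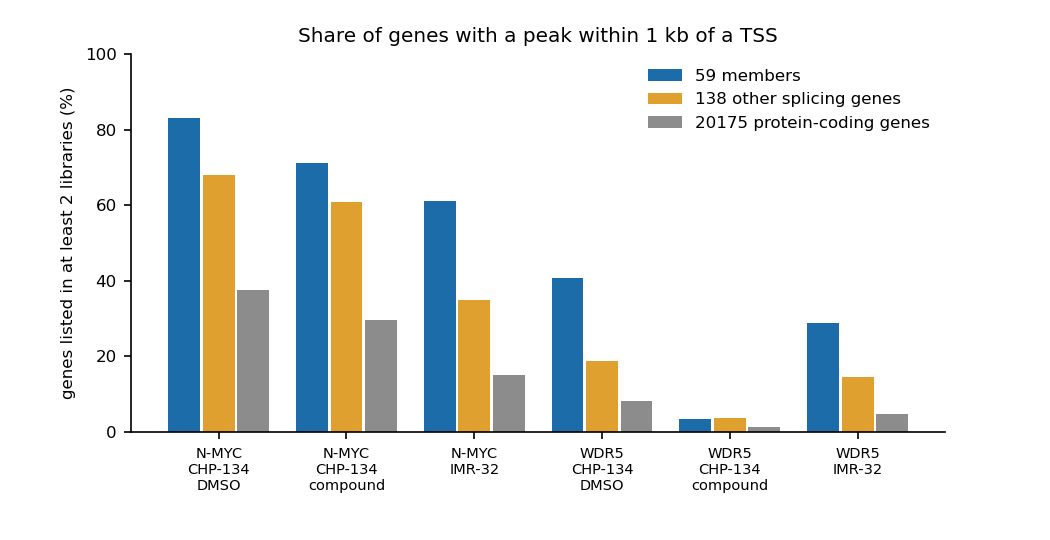
Percentage of genes (vertical axis) with a peak within 1 kb of a TSS in at least 2 libraries of each of 6 groups, for the 59 members (blue), the 138 other splicing genes (orange) and all 20175 protein-coding genes (grey). The members' bar exceeds the grey bar in all 6 groups, with 83.1% against 37.5% for N-MYC and 40.7% against 8.23% for WDR5 in CHP-134 under DMSO.

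The members were also counted by role, with no test between roles. All 9 hnRNP genes, counting PTBP1, and 8 of 9 SR and TRA2 genes had N-MYC in at least 2 DMSO libraries of CHP-134. WDR5 was listed at 5 and 6 of them. The Sm ring had N-MYC at 6 of 7 genes but WDR5 only at SNRPB and SNRPE. Of the 15 genes for the U2 snRNP and 3′ splice site recognition, 11 had N-MYC and 5 had WDR5. The tri-snRNP had N-MYC at 7 of 9 genes and WDR5 at 2 of 9, EFTUD2 and LSM2, and neither reached the 50th percentile in any DMSO library. Of the 4 exon junction genes, 3 had N-MYC and only RNPS1 had WDR5. All 3 U1 snRNP genes had N-MYC and 2 had WDR5. Of the 3 PRP19 complex genes, 2 had N-MYC and 1 had WDR5. These counts stand against the 37.5% and 8.23% of all genes given above.

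**Figure D2:**
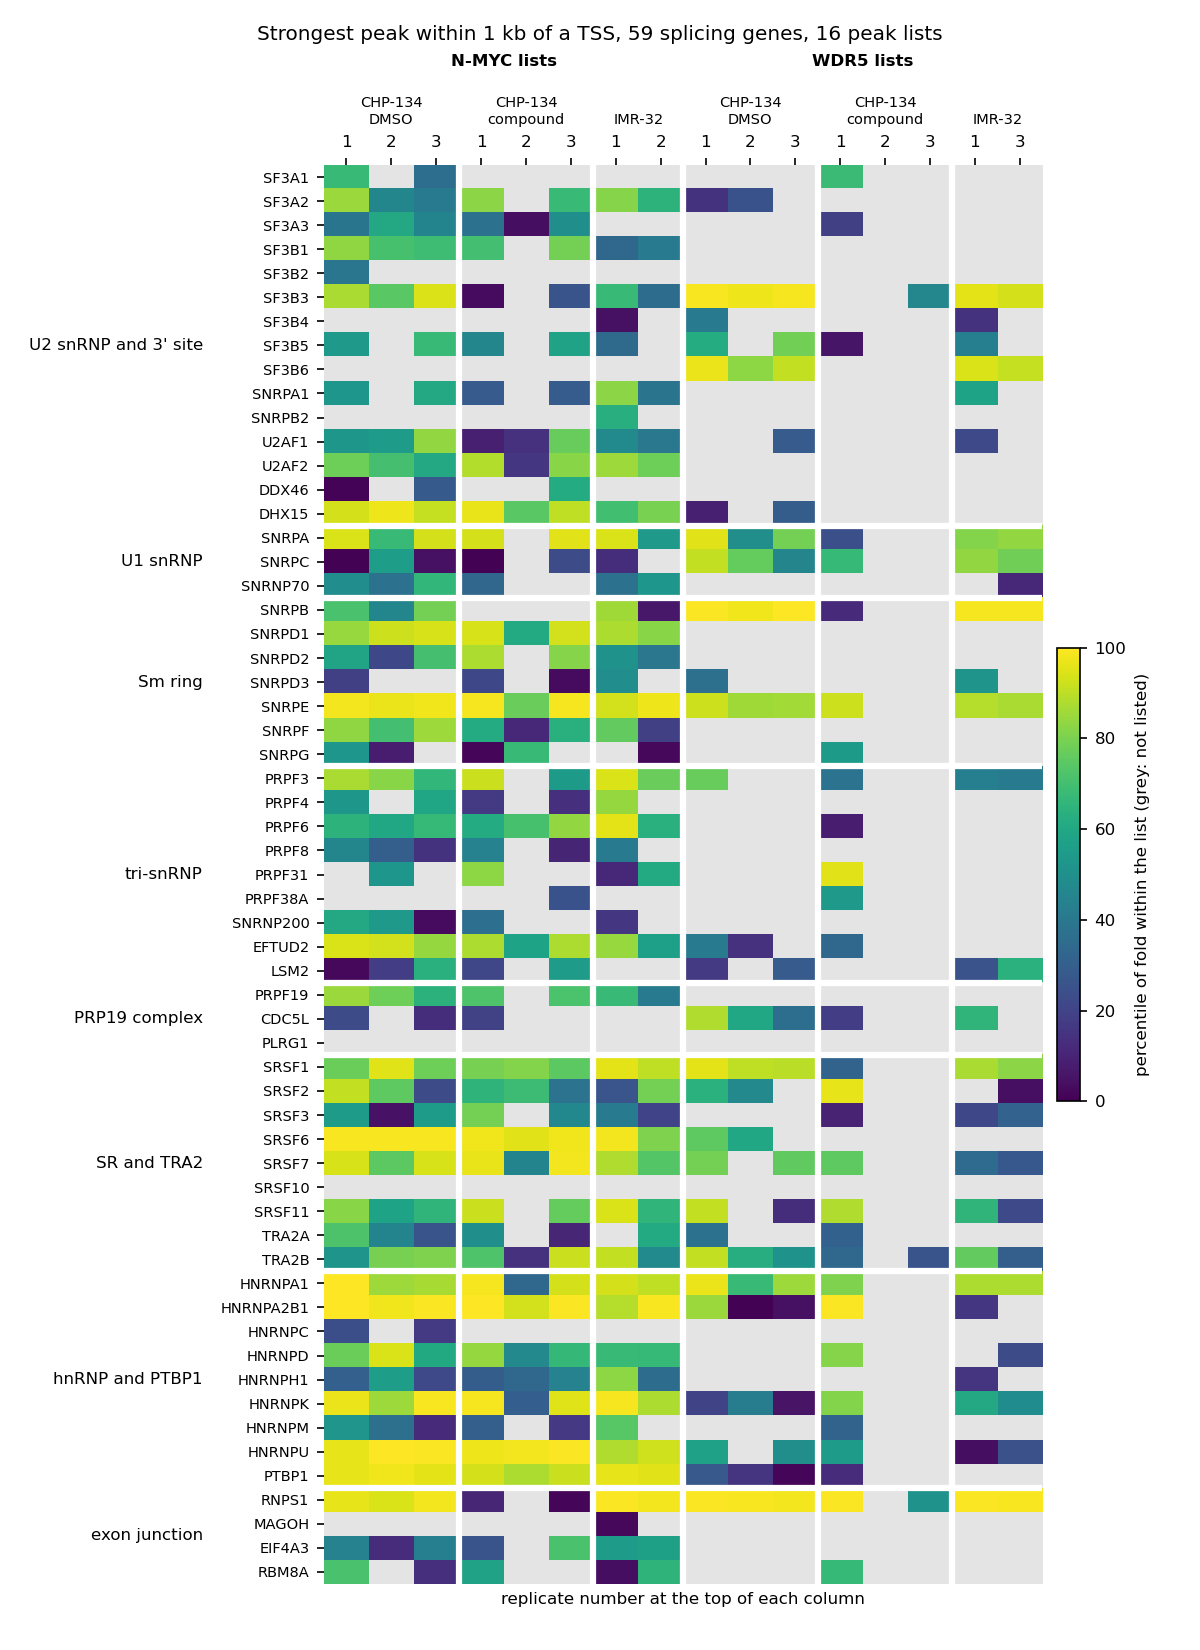
Percentile of the strongest promoter peak (colour, 0 to 100) for each of the 59 members (rows, ordered by role) in each of the 16 peak lists (columns, with the replicate number on top), where grey means not listed. RNPS1, SF3B3 and SNRPB are bright in all WDR5 lists of untreated IMR-32 and DMSO-treated CHP-134, and WDR5 compound replicate 2 lists none of the 59.

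At 3 members WDR5 ranked among the very strongest peaks of its lists. SNRPB encodes the Sm B protein of the snRNP core, RNPS1 an RNA-binding protein of the exon junction complex that acts in splicing, and SF3B3 a subunit of the U2-associated SF3b complex. SNRPB had WDR5 percentiles of 99.5, 97.8 and 99.8 in DMSO libraries 1 to 3 and of 98.8 and 98.7 in IMR-32. RNPS1 had 99.6, 99.0 and 98.1 under DMSO and 99.5 and 99.1 in IMR-32. SF3B3 had 99.1, 97.6 and 98.5 under DMSO and 95.8 and 93.4 in IMR-32. The 3 genes stayed near the top of every one of these 5 lists. In DMSO replicate 3 the SNRPB peak was the 4th strongest of 1671 peaks.

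Their N-MYC percentiles under DMSO differed more. RNPS1 had 96.3, 94.3 and 98.1, SF3B3 87.5, 74.5 and 94.7, and SNRPB 71.3, 46.0 and 79.3. In IMR-32, RNPS1 had 99.2 and 98.2, whereas SF3B3 had 67.5 and 35.2 and SNRPB 85.8 and 6.32. RNPS1 was thus high for both proteins in both lines, while N-MYC at SNRPB was high in one IMR-32 library and near the bottom of the other.

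The WDR5 summits at these genes lay just downstream of the TSS, at almost the same base in each library. In hg19 the RNPS1 promoter is on chromosome 16, minus strand, with its TSS at 2318127, and the WDR5 peak with the lowest q-value ran from 2317384 to 2318965. Its summit was 135 bp into the gene, in intron 1, and the 3 DMSO and 2 IMR-32 summits fell between 135 and 169 bp. The SNRPB peak (chromosome 20, 2450708 to 2451712, minus strand) had its summit 123 bp into the gene, in intron 1, with the 5 libraries between 123 and 169 bp. The SF3B3 peak (chromosome 16, 70557329 to 70558629, plus strand) had its summit 134 bp into the gene, also in intron 1, with the 5 libraries between 114 and 149 bp. SF3B3 shares its promoter region with COG4, a Golgi transport gene with a TSS within 1 kb, so the peak cannot be given to one gene alone. RNPS1 has the noncoding gene MIR3677HG within 1 kb. The same limit holds for other members named below that have a coding neighbour within 1 kb. Among them are HNRNPA1 (CBX5), SNRPA (ACTMAP), SRSF7 (GEMIN6), EFTUD2 (CCDC103), SNRPD2 (QPCTL) and SRSF2 (MFSD11).

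No CACGTG occurred within 100 bp of the N-MYC or the WDR5 summit at any of the 3 genes. The sequences below cover 50 bp on each side of the WDR5 summit in CHP-134, on the coding strand of each gene and in hg19, with any CANNTG in capitals. They are shown because these are the summits with the highest WDR5 percentiles of the set. SF3B6 is added as the member with WDR5 but no N-MYC peak in any list. Only SF3B3 held a CANNTG hexamer in its window.
RNPS1, chr16:2317942-2318042, minus strand: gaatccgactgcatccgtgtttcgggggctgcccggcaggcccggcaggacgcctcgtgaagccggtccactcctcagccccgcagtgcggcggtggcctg
SNRPB, chr20:2451262-2451362, minus strand: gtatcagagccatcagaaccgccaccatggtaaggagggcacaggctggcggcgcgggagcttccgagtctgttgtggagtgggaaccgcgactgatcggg
SF3B3, chr16:70557803-70557903, plus strand: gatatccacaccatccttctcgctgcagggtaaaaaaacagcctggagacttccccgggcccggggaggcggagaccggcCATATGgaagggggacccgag
SF3B6, chr2:24298870-24298970, minus strand: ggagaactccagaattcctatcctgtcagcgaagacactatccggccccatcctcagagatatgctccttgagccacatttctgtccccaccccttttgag

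RNPS1 was also the member among the loci that the study followed by ChIP-qPCR. Both primers matched hg19 exactly and enclosed 92 bp of intron 1, from 2317967 to 2318058, which include the WDR5 summit. They are given so that the amplified site can be placed against the peak.
RNPS1 forward primer, chr16:2318039-2318058, minus strand: GATGTAAGTTGGGGCGGAAT
RNPS1 reverse primer, chr16:2317967-2317984, plus strand: GAGGAGTGGACCGGCTTC

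Below this trio, WDR5 was lower and less even between libraries. SRSF1, a founding SR protein, had WDR5 percentiles of 95.9, 90.3 and 89.5 under DMSO and 87.3 and 82.6 in IMR-32. SNRPE, the Sm E protein, had 92.2, 85.6 and 86.2 under DMSO and 88.8 and 87.3 in IMR-32. HNRNPA1, an hnRNP that often opposes SR proteins, had 97.2, 67.7 and 85.3 under DMSO and 87.5 and 87.7 in IMR-32. These 3 genes were high for N-MYC too, with lowest DMSO percentiles of 77.6, 97.2 and 85.3. SNRPA, the U1 A protein, averaged a WDR5 percentile of 74.7 ± 23.2 (SD, n = 3) under DMSO. SNRPC, the U1 C protein, averaged 70.9 ± 23.1 and TRA2B, an SR-like activator of splicing, 68.0 ± 20.5. For these last 3 the DMSO libraries spanned more than 35 percentile points, so their order in the set is not resolved.

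SF3B6, another SF3b subunit, which contacts the branch site, was the only member with WDR5 and without N-MYC in CHP-134. WDR5 stood at percentiles 97.1, 83.1 and 90.96 under DMSO and at 94.2 and 91.3 in IMR-32. No N-MYC list of either line, with or without the compound, held a peak there. Its WDR5 peak (chromosome 2, 24298614 to 24299312) had its summit in intron 1, 276 bp into the gene, and FAM228B starts within 1 kb. In CHP-134 the combination of WDR5 without N-MYC was found at 148 of all genes, or 0.734%. In IMR-32, WDR5 in both libraries without N-MYC in both was found at SF3B6, SNRPC and LSM2, against 2.2% of all genes. SNRPC had N-MYC in 1 IMR-32 library, at percentile 12.9, and LSM2 in none.

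The strongest N-MYC peaks of the set lay mostly at hnRNP and SR genes. HNRNPA2B1, an hnRNP of RNA processing and transport, had N-MYC percentiles of 99.9, 97.9 and 99.4 under DMSO. SRSF6, an SR protein, had 98.9, 99.1 and 99.0. HNRNPU, a nuclear scaffold-associated hnRNP, had 96.3, 99.8 and 99.6. All 3 were within the top 4% of every DMSO list. SNRPE averaged 97.8 ± 0.53 (SD, n = 3), PTBP1, a repressor of exon inclusion, 96.6 ± 1.04, and RNPS1 96.2 ± 1.89. DHX15, a helicase that dismantles spent spliceosomes, averaged 94.1 ± 3.12, HNRNPK 93.7 ± 7.40, HNRNPA1 90.7 ± 7.85 and EFTUD2, a GTPase of the U5 snRNP, 90.5 ± 5.58. The values of neighbours in this order overlapped, so their order is not resolved. The N-MYC summit at HNRNPA2B1 lay 1460 bp upstream of its canonical TSS, towards CBX3, a heterochromatin protein gene with a TSS within 1 kb of that of HNRNPA2B1.

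N-MYC in at least 2 DMSO libraries of CHP-134, with WDR5 in fewer than 2, was found at 26 members and at 6062 of all genes. SNRPD1, the Sm D1 protein, had N-MYC percentiles of 84.4, 92.2 and 94.0 under DMSO and 87.8 and 82.1 in IMR-32. PRPF3, a U4/U6 protein, had 87.3, 82.3 and 66.3 under DMSO and 94.2 and 77.1 in IMR-32. It was also listed for WDR5, at 76.8 in 1 DMSO library and between 40.9 and 43.3 in both IMR-32 libraries. PRPF19, the ubiquitin ligase of the PRP19 complex, had N-MYC percentiles of 84.9, 77.97 and 64.3 under DMSO and 67.5 and 41.6 in IMR-32. The N-MYC peaks of these genes were in the upper part of every DMSO list. HNRNPD, an hnRNP that also acts in RNA decay, had 77.5, 94.2 and 60.7, and PRPF6, a scaffold of the tri-snRNP, 64.6, 60.1 and 67.1.

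Other central subunits were much lower. PRPF8, the large scaffold protein around the active site, had N-MYC percentiles of 45.99, 30.4 and 14.6 under DMSO and 41.7 in 1 IMR-32 library. SNRNP200, the helicase that unwinds U4 from U6, had 60.3, 53.8 and 3.09, and 15.7 in 1 IMR-32 library. HNRNPC, a uridine-binding hnRNP, had 24.0 and 17.1 in 2 DMSO libraries and was in no compound or IMR-32 list. SF3B2, an SF3b subunit, was in only 1 of the 16 lists, at 39.3. These genes were chosen for mention after their values had been seen.

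A CACGTG lay within 100 bp of the N-MYC summit at 12 of the 49 members with N-MYC in CHP-134 (24.5%), and at 2067 of 7575 protein-coding genes with such a summit (27.3%). The search covered both strands, on which CACGTG reads alike. Of the members with the highest N-MYC or with both proteins in both lines, 5 had one, and they are printed with 27 bp on each side, on the coding strand, with CACGTG in capitals. SNRPA carried a pair of them upstream of its TSS. In PTBP1 and EFTUD2 the site was upstream of the TSS, and in SRSF6 and HNRNPU downstream of it.
SNRPA, chr19:41256396-41256496, plus strand: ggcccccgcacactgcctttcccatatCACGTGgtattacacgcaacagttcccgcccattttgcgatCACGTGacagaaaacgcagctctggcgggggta
SRSF6, chr20:42086914-42086973, plus strand: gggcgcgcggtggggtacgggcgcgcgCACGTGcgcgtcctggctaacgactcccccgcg
HNRNPU, chr1:245026267-245026326, minus strand: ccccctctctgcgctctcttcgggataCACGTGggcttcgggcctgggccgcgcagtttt
PTBP1, chr19:797147-797206, plus strand: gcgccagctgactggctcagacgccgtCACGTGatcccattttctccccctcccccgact
EFTUD2, chr17:42977031-42977090, minus strand: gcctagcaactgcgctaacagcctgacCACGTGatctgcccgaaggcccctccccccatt

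Around the WDR5 summits the canonical E-box was rare among the members. It was found at 1 of 24 members in CHP-134 (4.17%), namely SRSF6, against 364 of 1661 genes with WDR5 (21.9%). In IMR-32 it was found at 0 of 17 members, against 130 of 956 genes (13.6%). Around N-MYC summits in IMR-32 it was found at 11 of 36 members (30.6%), against 1286 of 3068 genes (41.9%). The looser CANNTG, which includes CACGTG, was found at 24 of 49 members around N-MYC (49.0%, all genes 58.2%) and at 8 of 24 around WDR5 (33.3%, all genes 57.1%). In all 4 groups the members' share was below that of all genes for both motifs. These shares are descriptions and were not tested.

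The summits of the 2 proteins coincided at some members and not at others. Among the 23 with both in CHP-134, the WDR5 peaks of at least 2 libraries each overlapped an N-MYC peak of at least 2 libraries at all 23 members, and the gene's strongest N-MYC peak at 21. The exceptions were HNRNPA2B1 and HNRNPU. At PTBP1 this held in only 2 of 3 WDR5 libraries, and at TRA2B for the strongest N-MYC peak in 2 of 3. At the peaks with the lowest q-value of each protein, the summits were 163 bp apart in the median, against 125 bp over 1513 genes, and they were within 50 bp at 8 of 23 members and at 404 of the 1513 genes. In IMR-32 they were 327 bp apart in the median over 14 members and 150 bp over 513 genes, and within 50 bp at 1 of 14 members and 123 of 513 genes. RNPS1, SF3B3 and SNRPB were among the close ones, with 38, 49 and 34 bp. At SRSF1 the N-MYC summit was 627 bp downstream of the TSS and the WDR5 summit 235 bp upstream, a distance of 862 bp, but in replicate 3 the N-MYC summit was 244 bp upstream, close to that of WDR5. At HNRNPU the distance was 1422 bp, with N-MYC in intron 1 and WDR5 in exon 1, whereas in replicate 3 the WDR5 summit was 1565 bp downstream, beside that of N-MYC. By the same criterion the peaks overlapped at 13 of 14 members in IMR-32, and HNRNPU was the exception.

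Both proteins sat further downstream at members than at genes in general. The median WDR5 summit was 129 bp downstream of the canonical TSS over 24 members in CHP-134 and 47 bp upstream over 1658 genes. In IMR-32 it was 205 bp downstream over 17 members and 47 bp downstream over 955 genes. The median N-MYC summit lay 56 bp downstream over 49 members and 54 bp upstream over 7562 genes. The quartiles of members and of all genes overlapped in each of these pairs.

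**Figure D3:**
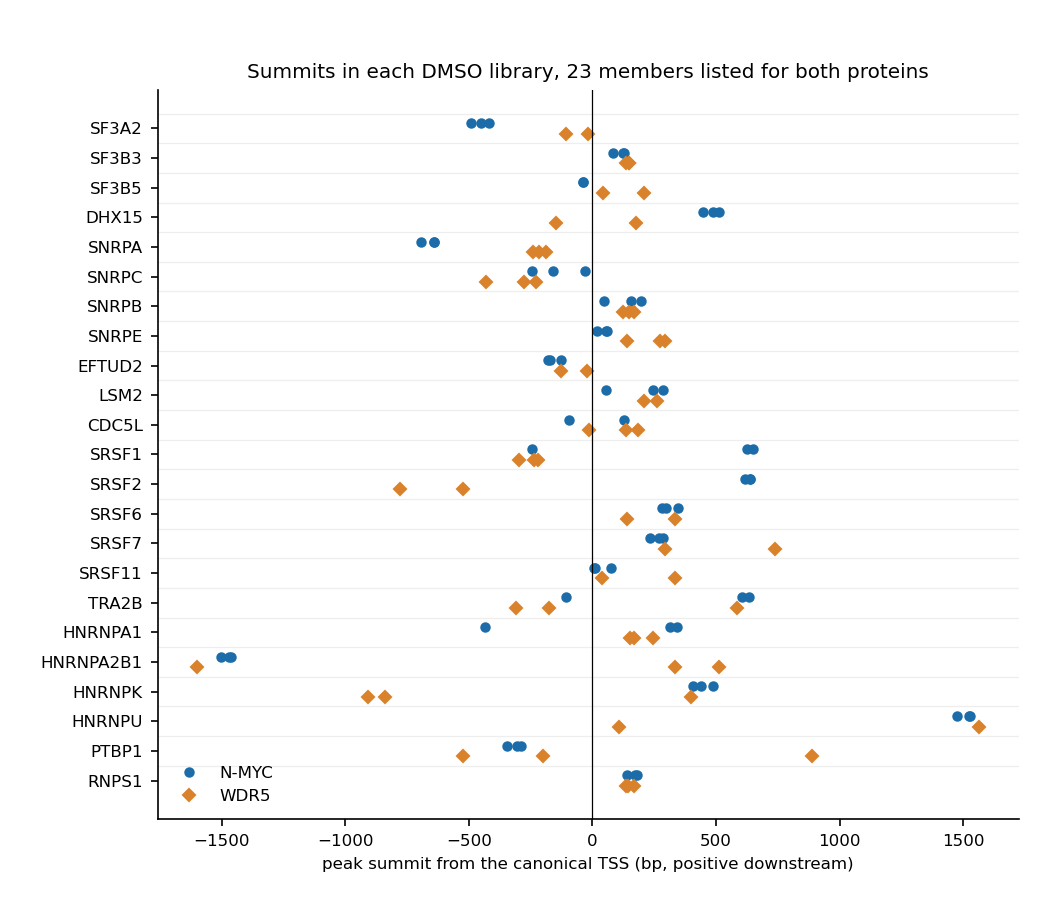
Distance of the peak summit from the canonical TSS (horizontal axis, bp, positive downstream) for N-MYC (blue circles) and WDR5 (orange diamonds) in each CHP-134 DMSO library that lists the gene, for the 23 members with both proteins. At RNPS1, SF3B3 and SNRPB all summits fall between 47 and 198 bp, whereas the WDR5 summits at HNRNPK range from 908 bp upstream to 399 bp downstream.

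Which of the 2 proteins ranked higher within its own list was tested with limma on the percentiles, over the 638 genes listed in all 6 DMSO libraries of CHP-134. Of these, 15.4% were called at an adjusted p under 0.05, 40 with WDR5 higher and 58 with N-MYC higher. Of the 12 members tested, 2 were called, both with N-MYC higher. PTBP1 had N-MYC percentiles of 96.3, 97.8 and 95.8 and WDR5 percentiles of 28.1, 15.1 and 1.29. The difference was −81.8 points (SE 8.40, adjusted p = 0.00847 by limma). HNRNPK had N-MYC percentiles of 97.1, 85.3 and 98.9 and WDR5 percentiles of 20.3, 41.9 and 5.15, a difference of −71.3 points (SE 10.8, adjusted p = 0.0122 by limma). In both genes the 2 proteins' values did not overlap. At the peaks with the lowest q-value of each protein, the summits were 1235 bp apart at PTBP1 and 1278 bp apart at HNRNPK. The values compared there may therefore belong to different sites of the promoter region.

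SNRPB went the other way, with WDR5 33.5 points above N-MYC (SE 9.86), but missed the threshold (adjusted p = 0.0748 by limma). SNRPC had WDR5 50.6 points higher (SE 18.9, adjusted p = 0.118 by limma). HNRNPA2B1 had WDR5 69.0 points lower, with an SE of 22.9, since its WDR5 percentile ranged from 0.597 to 85.0 between libraries (adjusted p = 0.0991 by limma). At RNPS1 the difference was 2.68 points (SE 5.66), both proteins being near the top of their lists. Other scales called members in this direction too. Ranked again among the tested genes, 3 members were called with WDR5 higher (SF3B3, SNRPB and SNRPC) and 4 with N-MYC higher, and over all genes 144 and 146 were called. On the centred log2 fold 4 members were called with WDR5 higher (RNPS1 joining these 3) and 3 with N-MYC higher, and over all genes 180 and 133. PTBP1 and HNRNPK were called with N-MYC higher on both of these scales.

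In IMR-32 the same comparison called 15.2% of 513 genes, 17 with WDR5 higher and 61 with N-MYC higher. The split between directions depended on the scale and on 1 library. It was 95 and 104 when ranked again, 192 and 126 on the centred log2 fold, and 99 and 34 without N-MYC replicate 1. Of the 14 members tested, 2 were called, again with N-MYC higher, whereas the numbers of members called with WDR5 and N-MYC higher were 1 and 4 when ranked again and 6 and 5 on the centred log2 fold. HNRNPU had N-MYC percentiles of 88.1 and 92.9 and WDR5 percentiles of 3.90 and 24.7 (difference −76.2 points, SE 9.59, adjusted p = 0.0386 by limma). At its peaks with the lowest q-value, the N-MYC summit was 1509 bp and the WDR5 summit 250 bp downstream of the TSS. By the criterion given above the peaks of the 2 proteins did not overlap there. The values compared at HNRNPU may therefore belong to different sites of the promoter region. SRSF7, an SR protein with a zinc knuckle, had 87.9 and 73.1 for N-MYC and 34.9 and 27.5 for WDR5 (difference −49.3 points, SE 8.12, adjusted p = 0.0467 by limma). With 2 libraries per protein these calls are fragile. Without any 1 of the 4 libraries neither gene was called, with adjusted p between 0.0546 and 0.173 by limma. HNRNPK, called in CHP-134, had N-MYC 38.6 points higher here (SE 8.05, adjusted p = 0.0600 by limma). Whether the 2 lines differed in this respect was not tested.

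**Figure D4:**
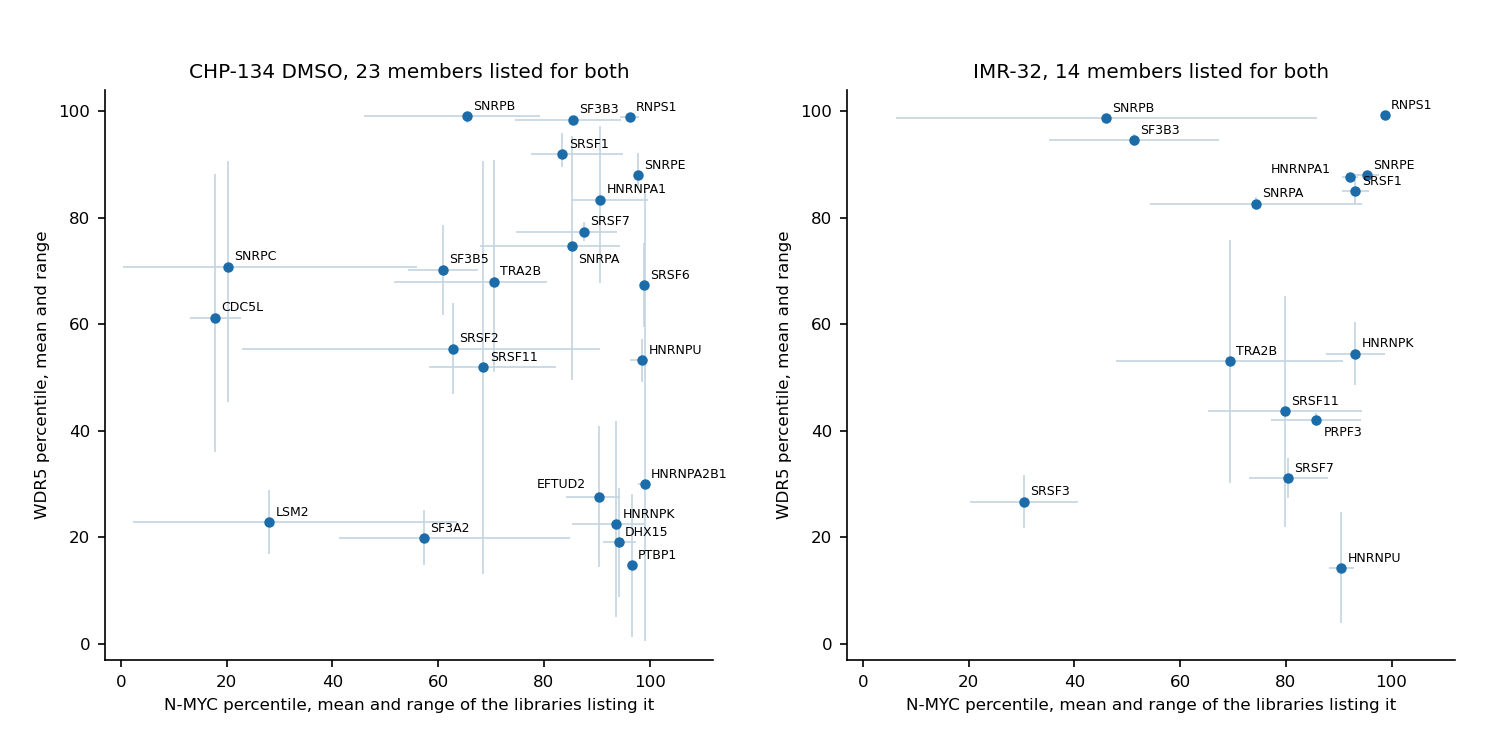
Mean N-MYC percentile (horizontal axis) against mean WDR5 percentile (vertical axis) of the members listed for both proteins in at least 2 libraries each, in CHP-134 under DMSO (left, 23 members) and IMR-32 (right, 14 members), with lines from the lowest to the highest library. RNPS1 is at the top right in both lines, SNRPB and SF3B3 are at the top with lower N-MYC, and PTBP1 (CHP-134) and HNRNPU (IMR-32) are at the lower right.

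There were 7 members with no N-MYC peak in any DMSO library of CHP-134, namely SF3B4, SF3B6, SNRPB2, PRPF38A, PLRG1, SRSF10 and MAGOH. The same was true of 51.8% of all genes. PLRG1, of the PRP19 complex, and SRSF10, an SR-related protein, were in none of the 16 lists, as were 46.4% of all protein-coding genes. SNRPB2, the U2 B″ protein, and MAGOH, a core subunit of the exon junction complex, were listed for N-MYC only in 1 IMR-32 library, at percentiles 62.9 and 2.03. SF3B4 was listed for N-MYC in 1 IMR-32 library at 4.36, and for WDR5 at 40.9 in 1 DMSO and at 14.8 in 1 IMR-32 library. PRPF38A was listed only under the compound, in 1 library of each protein. Apart from SF3B6, none of the 7 had WDR5 in more than 1 DMSO library.

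Under the compound, N-MYC was listed at 42 members in at least 2 libraries, against 29.7% of all genes. The 3 libraries listed 47, 22 and 43 members, against 34.5%, 10.9% and 37.1% of all genes. Without replicate 1 or replicate 3 the number in at least 2 libraries was 21 and 22, and the share of all genes was not counted. The test of compound against DMSO used the 2102 genes listed in all 6 N-MYC libraries, among them 21 members. It called 0.0% of the genes, and no member. At an unadjusted p under 0.05, 57 genes were below the threshold. Over all genes tested the median difference was −10.2 percentile points and over the 21 members −7.43. When percentiles were ranked again among the tested genes these medians became 0.13 and −0.59.

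This test left out the members with the strongest WDR5, because N-MYC was not listed there in at least 1 compound library. At RNPS1, N-MYC had percentiles of 96.3, 94.3 and 98.1 under DMSO, and of 10.8 and 1.60 in compound replicates 1 and 3, with no peak in replicate 2. In ranks, it was peak 564, 521 and 238 of its DMSO lists and peak 10036 of 11249 and 12110 of 12313 under the compound. At SF3B3 the values were 87.5, 74.5 and 94.7 under DMSO and 2.81 and 25.9 in compound replicates 1 and 3, again with no peak in replicate 2. At SNRPB, N-MYC was listed in all 3 DMSO libraries and in no compound library. At RNPS1 and SF3B3 every DMSO value was above every compound value, and SNRPB has no compound value to compare.

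The N-MYC peaks still listed there under the compound were also narrower, and their summits lay elsewhere. These peaks were low in their lists, at percentiles of 1.60 to 25.9. Width and summit position were not tested apart from that low rank. At RNPS1 the peak was 1106 to 1274 bp wide under DMSO, and 456 and 321 bp wide in compound replicates 1 and 3. Its summit was 141 to 182 bp downstream of the TSS under DMSO, but 76 bp downstream and 87 bp upstream under the compound. At SF3B3 the width went from between 709 and 992 bp to 360 and 414 bp, and the summit from between 85 and 126 bp downstream to 2 bp downstream and 71 bp upstream. At SNRPE, for comparison, the width was 731 to 927 bp under DMSO and 528 to 888 bp under the compound, with all 6 summits between 20 and 76 bp. Narrower peaks were not confined to RNPS1 and SF3B3. At U2AF1, with WDR5 in only 1 DMSO library, the width was 789 to 900 bp under DMSO. It was 348, 378 and 831 bp in compound replicates 1 to 3.

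Without compound replicate 2, 4679 genes were listed in all 5 remaining N-MYC libraries, among them 37 members. Ordered by the difference in mean percentile, RNPS1 was lowest of all 4679 genes (−90.0 points, SE 6.54) and SF3B3 was 4th (−71.2 points, SE 10.96). Adjusted over all genes neither passed the threshold (adjusted p = 0.308 and 0.999 by limma). With genes that are not listed set to percentile 0, so that all 6 libraries enter, the differences were −92.1 for RNPS1, −76.0 for SF3B3 and −65.5 for SNRPB (adjusted p = 0.167, 0.317 and 0.461 by limma). With the replicate block and without compound replicate 2 the adjusted p was 0.879 by limma at both RNPS1 and SF3B3. No member was called in any of these fits.

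Both compound replicates 1 and 3 were below all 3 DMSO libraries at 5 of the 37 members, against a background of 7.97%. These were RNPS1, SF3B3, SNRPF, PTBP1 and SRSF6. SNRPF, the Sm F protein, went from 83.3, 70.3 and 85.3 under DMSO to 61.5 and 63.3, and it had 11.45 in compound replicate 2. At PTBP1 and SRSF6 the mean differences were only −3.97 and −1.17 points. Both replicates were above all DMSO libraries at 4 of 37, against a background of 3.36%, and these were SNRPE, SRSF7, U2AF2 and SNRPD2. SNRPD2, the Sm D2 protein, had 58.3, 21.8 and 70.6 under DMSO and 87.9 and 81.7 under the compound, but no peak in compound replicate 2. Of 69 other splicing genes, 3 were below and 1 above.

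Apart from RNPS1, the 10 members with the strongest N-MYC under DMSO had N-MYC percentiles of at least 87.7 in compound replicates 1 and 3. HNRNPA2B1 had 99.7, 93.1 and 99.3 under the compound, SRSF6 97.7, 95.4 and 97.9, and HNRNPU 97.4, 98.3 and 99.6. For HNRNPA2B1 and HNRNPU these values overlapped those under DMSO, and for SRSF6 all 3 were below. HNRNPK and HNRNPA1 had 98.5 and 98.7 in replicate 1 and 95.2 and 93.7 in replicate 3, but only 29.96 and 33.4 in replicate 2.

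**Figure D5:**
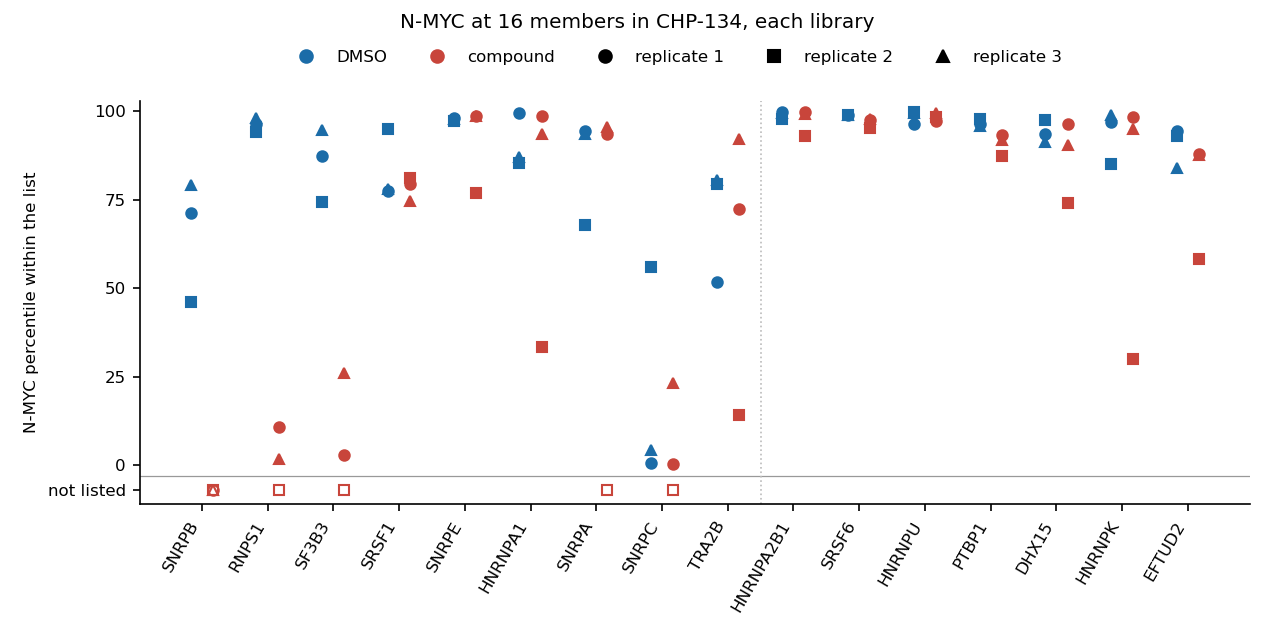
N-MYC percentile (vertical axis) in each CHP-134 library under DMSO (blue) and the compound (red), with 1 symbol per replicate number and open symbols for libraries that do not list the gene. Left of the dotted line are the 9 members with the highest mean WDR5 under DMSO that had N-MYC, in that order, and right of it the other members with the highest N-MYC; RNPS1, SF3B3 and SNRPB have no compound value above 26, and HNRNPA2B1, SRSF6 and HNRNPU none below 93.

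The 3 genes with the strongest WDR5 were set beside all genes. Of the 40 members with N-MYC in all 3 DMSO libraries, 1 (SNRPB) was in no compound library, where the background was 1.91%, or 102 of 5351 genes. Among all genes with N-MYC in all 3 DMSO libraries, 109 had a mean WDR5 percentile of at least 95, a limit chosen after values had been seen. Of these 109, 64, 21 and 71 were listed for N-MYC in compound replicates 1 to 3, or 58.7%, 19.3% and 65.1%. Of the 5242 other genes 91.1%, 40.5% and 95.7% were listed. Of the 37 other members, 37, 21 and 35 were listed, and of the trio 2, 0 and 2. The 2 sets rest on the same 6 libraries, and no test was made of the difference.

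WDR5 itself could be followed under the compound only in part. Compound replicate 2 listed 15 peaks and no member, and replicate 3 listed 401 peaks and 3 members, SF3B3, TRA2B and RNPS1, against 1.88% of all genes. Replicate 1 listed 5973 peaks, more than any DMSO library, and 30 members, against 15.7% of all genes. Listed in at least 2 compound libraries were 2 members, against 1.29% of all genes. At RNPS1 the percentile was 99.3 in replicate 1 and 51.4 in replicate 3. The fold there was 8.09 and 5.02, whereas it was 57.6 to 66.6 in the DMSO lists, each on the scale of its own library. SNRPB had a percentile of 12.4 in replicate 1 and was not listed in the others, and SF3B3 had 46.1 in replicate 3 only. SF3B6 was in none of the 3 lists.

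Compound replicate 1 of WDR5 also ranked the members in another order than the DMSO lists. HNRNPA2B1 had a percentile of 99.6 there, SRSF2 96.5 and PRPF31 95.5. Under DMSO, HNRNPA2B1 had 85.0, 0.597 and 4.61, SRSF2 64.0 and 47.0 with no peak in replicate 3, and PRPF31 was not listed. The fit of compound against DMSO, without compound replicate 2, covered 141 genes and called 7.8%, all 11 of them lower. With the replicate block no gene was called, and ranked again 17 were called higher and 21 lower. The 2 members in the fit were not called. TRA2B differed by −38.2 points (SE 14.2, adjusted p = 0.274 by limma) and RNPS1 by −23.6 points (SE 15.8, adjusted p = 0.440 by limma). On the centred log2 fold RNPS1 was called lower, by −2.94 (adjusted p = 0.000144 by limma). On that scale 22% of the 141 genes tested were called lower. Leaving out compound replicate 1 or 3 left 1 compound library, and the RNPS1 difference was then −47.5 and 0.42 points. The comparisons of N-MYC and of WDR5 with the compound, between lines and between proteins reuse the same DMSO libraries, so they are not independent of each other.

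Between the lines, no member was called for either protein on the percentile scale. For N-MYC the fit covered 2658 genes, called 0.0% of them and had 368 at an unadjusted p under 0.05. Of the 33 members tested, 23 had a lower and 10 a higher percentile in IMR-32, with a median difference of −5.26 points, while the median over all genes was −6.65. This direction depended on the scale. Ranked again among the tested genes, 18 members were higher and 15 lower (median 3.05), and on the centred log2 fold 20 were higher and 13 lower. SF3B1, the largest SF3b subunit, had 83.3, 71.0 and 68.9 in CHP-134 and 33.2 and 41.1 in IMR-32 (difference −37.2 points, SE 7.30, adjusted p = 0.152 by limma). The values of the 2 lines did not overlap. DHX15 had a mean of 94.1 in CHP-134 and 74.8 in IMR-32 (difference −19.3, SE 6.17, adjusted p = 0.308 by limma). At RNPS1, PTBP1, HNRNPK and TRA2B the difference was under 3 points, with SEs of 5.15, 5.06, 7.52 and 17.1.

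For WDR5 the fit between lines covered 510 genes, called 0.0% of them and had 67 at an unadjusted p under 0.05. Of the 11 members tested, 7 were higher and 4 lower in IMR-32, with a median difference of 0.35 points. The tally was not stable, with 3 higher and 8 lower under the replicate block (median −1.28), and 4 higher and 11 lower without WDR5 DMSO replicate 2 (median −3.64). SNRPB differed by −0.31 (SE 2.20), RNPS1 by 0.35 (SE 2.15) and SNRPE by 0.06 (SE 3.18). The largest difference was at HNRNPK, with 20.3, 41.9 and 5.15 in CHP-134 and 60.5 and 48.5 in IMR-32 (32.1 points, SE 12.7, adjusted p = 0.427 by limma). The WDR5 peak was not at the same place there. Its summit was 908 and 840 bp upstream of the TSS in DMSO replicates 1 and 2, towards RMI1, and 399 bp downstream in replicate 3, and in IMR-32 it was 233 and 286 bp downstream. At TRA2B it was 175 and 311 bp upstream and 584 bp downstream in CHP-134, and 952 and 688 bp downstream in IMR-32. On the centred log2 fold 2 members, RNPS1 and SF3B6, were called higher in IMR-32, by 0.91 and 1.37 (adjusted p = 0.0211 and 0.000943 by limma). Neither was called under any other alternative (adjusted p of at least 0.718 and 0.393 by limma). On the centred log2 fold 20.4% of the 510 genes tested were called higher, so 2 of 11 members was near the background.

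Some members met the criterion of at least 2 libraries in 1 line only, which does not mean that the other line lacked a peak. WDR5 was in at least 2 DMSO libraries of CHP-134 and not in both IMR-32 libraries at SF3A2, SF3B5, DHX15, EFTUD2, CDC5L, SRSF2, SRSF6, HNRNPA2B1 and PTBP1, which are 9 members, and the same held at 4.84% of all genes. SF3B5, CDC5L, SRSF2 and HNRNPA2B1 were nevertheless listed in 1 IMR-32 library. It was in both IMR-32 libraries and not in 2 of CHP-134 at PRPF3, a tri-snRNP protein, and SRSF3, an SR protein, against 1.35% of all genes. N-MYC was in at least 2 DMSO libraries of CHP-134 and not in both IMR-32 libraries at 14 of the 59 members and at 23.0% of all genes, so the members' share was near the background. The reverse held at PRPF31 and at 0.699% of all genes. SRSF6 had WDR5 percentiles of 75.2 and 59.5 in CHP-134 and no WDR5 peak in IMR-32, although its N-MYC percentiles there were 98.1 and 80.5. CDC5L, of the PRP19 complex, had WDR5 percentiles of 88.3, 59.5 and 36.1 in CHP-134 and of 65.6 in 1 IMR-32 library. The lists of IMR-32 were shorter for N-MYC and at most as long as the middle DMSO list for WDR5. The criterion was also stricter in IMR-32, where it required both libraries rather than 2 of 3. The parts of list length and of the number of libraries in these differences were not tested.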

How the data were processed

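N-MYC and WDR5 ChIP-seq gave 16 peak lists from 22 samples, and the IgG samples were not analysed here. Per the authors' methods, adapters were removed by Cutadapt, Bowtie2 mapped the reads to hg19, and MACS2 called peaks in each library at a q-value of 0.05. Program versions and the control library are not given in the sources used here. The deposited lists give each peak's fold over local background (a ratio), its p-value and q-value as −log10 values, and a whole-number score. The fold was ranked within each list, the −log10 q-value chose a gene's summit and the stricter threshold, and the deposited p-value and score were not used. Folds were tested between libraries only as an alternative, as log2 folds centred on the genes tested. The lists hold no read counts, so the depth of each library is unknown and no interval for it can be given. They hold no expression, so the identity of the cells could not be checked.

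TSSs came from basic transcripts of GENCODE 44 mapped to GRCh37. All 59 members and 138 other splicing genes were found. No peak lay beyond a chromosome's end. All sequences were read from GRCh37, apart from the primers, which were copied from the study's supplement.

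Percentiles were fitted with limma 3.58.1 (R 4.3.3), two-sided, over all protein-coding genes listed in every library of a fit, with Benjamini-Hochberg adjustment over them. WDR5 compound replicate 2, with under 100 peaks, was left out. The p-values measure the spread between libraries, which may be technical. The assignment of peaks to genes and the fits were tested on simulated data.

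Same-numbered CHP-134 libraries deviated together. Deviations from the group means correlated at 0.59, 0.54 and 0.59 for N-MYC under DMSO and the compound, and at 0.29, 0.28 and 0.28 for N-MYC and WDR5 under DMSO. The block on the replicate number was therefore run as an alternative.

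The members and gene lists were chosen with earlier results of these data known. Genes were named by rule: the 10 members with the highest mean WDR5 percentile and the 10 with the highest mean N-MYC percentile among those listed in all 3 DMSO libraries, members with both proteins in both lines, members without N-MYC under DMSO, members called by a fit, and RNPS1 as the qPCR locus. Others were named after their values had been seen. Alternatives were ranking again among tested genes, the centred log2 fold, other distances to a TSS, summits in place of peaks, TSSs of all transcripts, a −log10 q-value of at least 3, the strongest 1000 peaks, percentile 0 for genes not listed, the replicate block, and leaving out each library.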

Additional observations from a re-analysis of the deposited data

How the results depend on the processing

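The N-MYC comparison of compound and DMSO called 0 genes under all 15 alternatives, and the N-MYC comparison across lines called 0 under 11 of 13. Ranking again among the tested genes gave 38 calls for WDR5 under the compound (11 as reported), 26 for WDR5 across lines (0), 290 for WDR5 against N-MYC in CHP-134 (98) and 199 in IMR-32 (78). The centred log2 fold gave 33, 174, 313 and 318 for these, and 9 for N-MYC across lines. Setting genes not listed to 0 gave 238, 132, 2807 and 2121, and 257 for N-MYC across lines. That alternative tests many more genes. With the replicate block the number for WDR5 under the compound went to 0, with 90 calls for WDR5 against N-MYC in CHP-134, and the block changed no other count of calls. No block could be fitted in IMR-32, where the proteins share 1 number. A spread fitted as a trend, chosen after seeing the data, gave 7 calls for WDR5 under the compound. Leaving out a library gave 0 (DMSO replicate 2 or 3) to 86 (compound replicate 3) calls for WDR5 under the compound, with 5 without DMSO replicate 1 and 31 without compound replicate 1. It gave 0 to 5 (WDR5 DMSO replicate 1) for WDR5 across lines, and 51 (N-MYC replicate 3) to 181 (WDR5 replicate 3) for WDR5 against N-MYC in CHP-134. In IMR-32 it gave 133 without N-MYC replicate 1 and 0 without any other library. Except where stated, the cause of these changes was not tested.

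Among the strongest 1000 peaks of each list, N-MYC was at 12, 11 and 8 members (DMSO, compound, IMR-32), WDR5 at 11 under DMSO, and both at 3 in CHP-134 and 5 in IMR-32. WDR5 compound lists are too short for this. For these settings and for leaving out a library, the share of all genes is given only where it was counted. Requiring every library gave 21 members for N-MYC under the compound and 14 for WDR5 under DMSO, the latter against 3.86% of all genes. It gave 12 for both in CHP-134, against 638 of all genes, and 0 for WDR5 under the compound. A distance of 500 bp gave 1 for the last. Leaving out a library gave 40 to 48 members for N-MYC and 14 to 20 for WDR5 under DMSO, 13 to 23 for both, 21 to 41 for N-MYC and 0 to 2 for WDR5 under the compound. The low values came without WDR5 DMSO replicate 1 (14 and 13), without N-MYC compound replicate 1 or 3 (21 and 22) and without WDR5 compound replicate 1 or 3 (0). In IMR-32 it leaves 1 library, so no such count was made. PTBP1 and HNRNPK stayed called under all 13 alternatives that tested them, with a highest adjusted p of 0.0241 and 0.0466 by limma. With a −log10 q-value of at least 3 they were not tested, since they were then not listed in every library. That setting tested 8 members in CHP-134 and called 0. HNRNPU lost its call in 4 of 10 and SRSF7 in 5 of 11, and HNRNPU too was not tested at that q-value. For WDR5 under the compound, SNRPB, SRSF1 and SF3B6 were also called lower with genes not listed set to 0. These were 3 of 24 members, against 13.3% of all genes tested, so the members' share was near the background.

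Depth is not recorded in the lists, and 2 or 3 libraries per group limit what the fits can show.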
